A study of Homo sapiens with 12 samples.

Results

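The 10 nuclear genes POLG, POLG2, TWNK, SSBP1, MGME1, TOP1MT, TFAM, TFB1M, TFB2M and POLRMT, whose products serve the copying and expression of mitochondrial DNA, were followed through the ATAC-Seq count table. They were taken by gene symbol and make up 10 of the 52889 gene entries. Each of the 10 was counted in all 12 samples and passed the filter on low values. All samples were of HEK293T, a cell line from human embryonic kidney. The cells came from a Sleeping Beauty transposon system with puromycin selection, and the sources used here do not state that a line was 1 clone. Mock cells carried the empty vector pSBTet-GP. The d0 cells expressed constitutive MLL-AF4, the fusion protein of the t(4;11) translocation. The d3 cells expressed constitutive MLL-AF4 together with the reciprocal fusion AF4-MLL, which was induced with 1 µg/ml doxycycline for 48 h from a transiently transfected plasmid. Per the description of the study, blasticidin was given together with doxycycline for these 48 h. The d28 cells are labelled with the genotype of d0. According to the description of the study, AF4-MLL expression was ended by the withdrawal of doxycycline 25 days before. Its plasmid was then lost from the cells in the absence of selection. Each group held 3 biological replicates, and the harvest day of Mock cells is not given in the sources used here. In bulk samples like these, a change in a part of the cells and a smaller change in every cell cannot be told apart.

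Mitochondrial DNA is copied by a dedicated machinery encoded in the nucleus, in which the polymerase gamma complex follows the Twinkle helicase and the displaced strand is covered by a single-stranded DNA binding protein. Transcription is carried out by a single-subunit RNA polymerase that needs TFAM and TFB2M to start at the mitochondrial promoters, and TFAM also packages the mitochondrial DNA. The nuclear genes of this machinery are known as targets of the nuclear respiratory factors NRF1 and GABP (also called NRF2).

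The stretches of 250 bases before the annotated start of TFB1M and of the transcription genes TFAM, TFB2M and POLRMT are shown here. Every one of them holds the NRF1 motif, as does the window of the replication gene POLG2, which is not shown. They were copied from RefSeq (GRCh38.p14) and run 5′ to 3′ on the strand of the gene. Capitals mark matches to the NRF1 motif GCGCNTGCG and the GABP motif CCGGAAG, on either strand. The windows lie at chr6:155314485-155314734 on the minus strand for TFB1M, chr10:58385160-58385409 on the plus strand for TFAM, chr1:246566262-246566511 on the minus strand for TFB2M and chr19:633538-633787 on the minus strand for POLRMT.
TFB1M: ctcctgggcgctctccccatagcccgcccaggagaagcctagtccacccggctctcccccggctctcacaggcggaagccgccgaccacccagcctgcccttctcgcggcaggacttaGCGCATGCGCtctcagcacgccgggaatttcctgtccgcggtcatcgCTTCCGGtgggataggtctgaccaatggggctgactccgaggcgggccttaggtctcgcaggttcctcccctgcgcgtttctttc
TFAM: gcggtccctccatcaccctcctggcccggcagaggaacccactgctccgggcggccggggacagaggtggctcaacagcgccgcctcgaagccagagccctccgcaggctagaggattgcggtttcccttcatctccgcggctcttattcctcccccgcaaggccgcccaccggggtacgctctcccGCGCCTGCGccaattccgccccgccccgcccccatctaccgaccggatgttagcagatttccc
TFB2M: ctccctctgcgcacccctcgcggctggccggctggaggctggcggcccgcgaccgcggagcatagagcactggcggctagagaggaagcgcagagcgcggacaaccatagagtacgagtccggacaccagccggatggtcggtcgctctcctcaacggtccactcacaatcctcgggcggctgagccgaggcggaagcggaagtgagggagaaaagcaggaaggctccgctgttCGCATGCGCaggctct
POLRMT: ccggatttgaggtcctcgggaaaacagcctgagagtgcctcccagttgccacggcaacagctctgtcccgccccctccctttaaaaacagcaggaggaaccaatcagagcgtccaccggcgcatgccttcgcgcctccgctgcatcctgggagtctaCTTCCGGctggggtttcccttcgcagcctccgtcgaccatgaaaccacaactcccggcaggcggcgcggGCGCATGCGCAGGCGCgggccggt

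A window was found for 8 of the 10 genes, TWNK and TOP1MT being without an entry. The NRF1 motif was present in 5 of these 8 windows, those of POLG2, TFAM, TFB1M, TFB2M and POLRMT, and in 7.09% of all 27305 different windows of the same length. The share of G and C was 62.0% to 69.2% in these 5 and 50.0% to 65.6% in the windows without the motif. The median over all windows was 58.0%, and the part of this share in the matches was not tested. The GABP motif was found in 3 of the 8 (POLG2, TFB1M and POLRMT) and in 8.82% of all windows. The SP1 motif GGGCGG was found in 7 of the 8 and in 42.3% of all windows, so it was frequent in general. In TFB1M the capitals at bases 132 to 123 before the start form a palindrome, which was matched on both strands by 2 overlapping copies of the NRF1 motif. The GABP match of TFB1M lay at bases 85 to 79 before the start. In POLRMT 3 NRF1 matches overlapped within bases 24 to 9 before the start. Windows of POLG, SSBP1 and MGME1 held neither the NRF1 nor the GABP letters. The MGME1 window lies at chr20:17968768-17969017 on the plus strand. It is inside the gene as located below, which begins at 17968590, and not before that start. A match describes letters in the reference and not binding in these cells. The interval over which reads were counted per gene is not given in the sources used here, so that the counts below cannot be assigned to these windows.

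The samples differed in depth and in the part taken by mitochondrial sequences. Total counts per sample lay between 353430 and 501324 in Mock, 648466 and 715327 in d0, 930067 and 1186209 in d3, and 1058754 and 3539937 in d28. The share of counts on the 37 mitochondrially encoded genes (MT- genes) was 26.8% ± 0.321 in Mock, 44.0% ± 1.83 in d0, 39.4% ± 5.94 in d3 and 65.5% ± 2.61 in d28 (mean ± SD, n = 3 each). The libraries were prepared from isolated nuclei, so this share was not calibrated to mitochondrial DNA per cell. For this reason the 10 nuclear genes were scaled without the MT- genes. As a check of the cell type, 8 of 8 kidney and epithelial genes had a mean above 2 normalized counts in every group, with sums between 144 and 200.3 per sample, and 5 of 8 haematopoietic genes did so, with sums between 59.9 and 94.1. Since genes collect ATAC-Seq reads whether they are expressed or not, the labelled cell type could not be decided by these sums.

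A normalized count is here the read count of a gene divided by the effective size of the library outside the MT- genes and multiplied by the mean effective size of the 12 libraries. Values of a gene are given for replicates 1 to 3 in this order. They were compared between groups of the same gene only, since genes differ in length. Raw counts of the 10 genes ranged from 4 to 120 per sample, so that counting error was large. Differences were tested by the edgeR quasi-likelihood test over 27543 genes with Benjamini-Hochberg adjustment, and this is meant by every adjusted p.

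TFB1M had the largest log2 fold change against Mock of the 10 genes, at d3, in the scaling without MT- genes. TFB1M is a methyltransferase that modifies the small ribosomal RNA of mitochondria and is related to the transcription factor TFB2M. It lies on chromosome 6 at 155229871 to 155314484 and overlaps TIAM2 and CLDN20. Normalized counts of TFB1M were 10.3, 21.3 and 6.84 in Mock, 24.3, 29.0 and 22.8 in d0, 28.5, 26.0 and 28.2 in d3, and 23.5, 15.2 and 23.1 in d28. All d0 and d3 samples were above all Mock samples, whereas the lowest d28 sample lay below the highest Mock sample. All d28 samples of TFB1M were below all d3 samples, as for 2196 of the 27543 tested genes. TFB1M rose from 12.8 ± 7.57 in Mock to 27.6 ± 1.37 in d3 (mean ± SD, n = 3). The edgeR model estimate was 2.03-fold with a 95% interval of 1.34 to 3.06 (log2 fold change 1.02, SE 0.30, edgeR adjusted p = 0.0486). This was the single call among the 10 genes in any of the 6 comparisons. The Mock level rested on raw counts of 7, 17 and 4, and the count of 4 alone had a Poisson interval of 1.09 to 10.2. The adjusted p was near the threshold, and the call was lost with DESeq2 (log2 fold change 0.91, DESeq2 adjusted p = 0.397) and with RLE factors (0.89, edgeR adjusted p = 0.155). It was also lost without Mock replicate 1 (0.86, edgeR adjusted p = 0.263), without Mock replicate 3 (0.76, edgeR adjusted p = 0.336) and without any single d3 replicate (edgeR adjusted p = 0.108, 0.0715 and 0.119). Without Mock replicate 2 the log2 fold change was 1.65 (edgeR adjusted p = 0.0172). For d0 against Mock the log2 fold change was 0.89 (SE 0.33, edgeR adjusted p = 0.305), and for d28 against Mock it was 0.59 (SE 0.32, edgeR adjusted p = 0.426). The order of the group means was d3, d0, d28 and Mock, and no neighbours in this order differed by the test.

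TFAM binds and bends mitochondrial DNA and is needed to start its transcription. The gene lies on chromosome 10 at 58385410 to 58399220, with no other RefSeq gene overlapping it. Normalized counts of TFAM were 59.1, 49.0 and 42.8 in Mock, 99.6, 73.3 and 64.7 in d0, 79.3, 65.0 and 80.5 in d3, and 64.1, 62.8 and 63.4 in d28. Here all samples of the 3 fusion gene groups were above all Mock samples. The mean was 50.3 ± 8.22 in Mock, 79.2 ± 18.2 in d0, 74.9 ± 8.60 in d3 and 63.5 ± 0.625 in d28. The log2 fold change against Mock was 0.66 in d0 (SE 0.19, edgeR adjusted p = 0.0866), 0.57 in d3 (SE 0.18, edgeR adjusted p = 0.0665) and 0.33 in d28 (SE 0.18, edgeR adjusted p = 0.442). None of these passed the threshold. The difference at d0 passed it without d0 replicate 3 (0.79, edgeR adjusted p = 0.0460), and that at d3 passed it without d3 replicate 2 (0.66, edgeR adjusted p = 0.0439). All d28 samples of TFAM lay below all d0 and all d3 samples. The log2 fold change was -0.33 against d0 (edgeR adjusted p = 0.360) and -0.24 against d3 (edgeR adjusted p = 0.658). Of the 27543 tested genes, 1815 had all d28 samples below all d0 samples, and 2196 had them below all d3 samples. The pseudogenes TFAMP1 and TFAMP2 had between 0 and 2 raw counts in every sample.

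TFB2M melts the mitochondrial promoter together with the polymerase, and the gene lies on chromosome 1 at 246540561 to 246566261. Normalized counts of TFB2M were 20.7, 13.8 and 10.3 in Mock, 17.0, 15.2 and 25.4 in d0, 15.9, 17.3 and 21.7 in d3, and 12.3, 17.3 and 15.9 in d28. The 4 groups overlapped. Its log2 fold change was 0.35 in d0, 0.28 in d3 and -0.029 in d28 against Mock, with edgeR adjusted p between 0.788 and 0.986.

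POLRMT is the RNA polymerase of mitochondria and also makes primers for replication. The gene lies on chromosome 19 at 617221 to 633537. Normalized counts of POLRMT were 23.6, 30.1 and 25.7 in Mock, 19.4, 16.6 and 34.3 in d0, 40.4, 32.1 and 29.0 in d3, and 33.6, 36.1 and 34.6 in d28. All d28 samples lay above all Mock samples, while d0 covered a wide range with its replicate 3 close to d28. The log2 fold change was 0.38 for d28 against Mock (SE 0.24, edgeR adjusted p = 0.530) and 0.56 for d28 against d0 (SE 0.24, edgeR adjusted p = 0.269). It was 0.52 for d3 against d0 (SE 0.24, edgeR adjusted p = 0.340). POLRMT was the single gene of the 10 that was not lower in d28 than in d3, with a log2 fold change of 0.034 and a 95% interval of -0.35 to 0.42. The pseudogene POLRMTP1 had between 0 and 8 raw counts per sample.

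**Figure D1:**
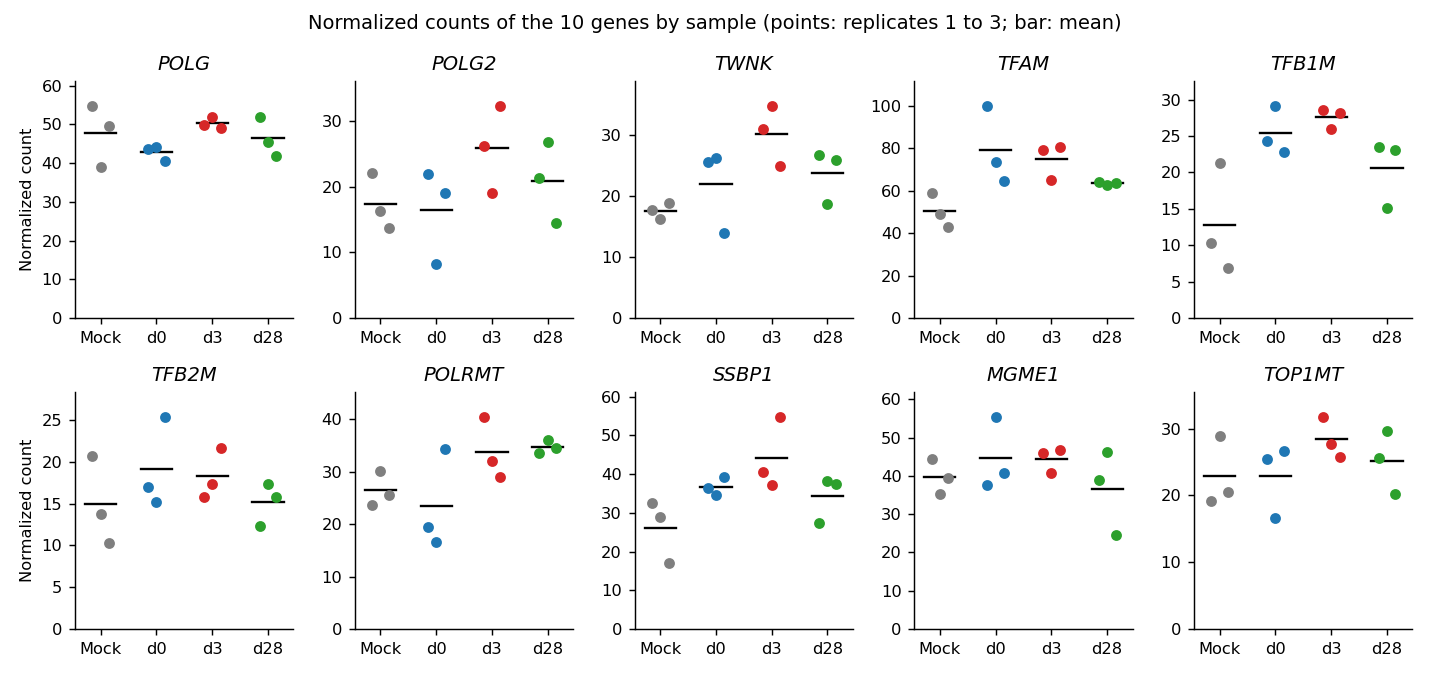
Normalized counts (y axis, scaled without MT- genes, each axis from 0) of the 10 genes in the 12 samples by group (x axis). Points are replicates 1 to 3 from left to right and bars are group means. TFAM lies above the Mock samples in all 9 other samples, and TFB1M in all d0 and d3 samples.

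Among the replication genes, TWNK and SSBP1 showed the largest differences at d3. TWNK encodes Twinkle, the helicase that unwinds mitochondrial DNA, on chromosome 10 at 100987543 to 100994403. Normalized counts of TWNK were 17.7, 16.3 and 18.8 in Mock, 25.5, 26.3 and 14.0 in d0, 30.9, 34.7 and 24.9 in d3, and 26.7, 18.8 and 26.0 in d28. All d3 samples were above all Mock samples, which were close to each other, while d0 reached below Mock. The log2 fold change of TWNK was 0.78 for d3 against Mock (SE 0.28, edgeR adjusted p = 0.151), 0.32 for d0 and 0.44 for d28. SSBP1, the single-stranded DNA binding protein, is encoded on chromosome 7 at 141738321 to 141750488. Normalized counts of SSBP1 were 32.5, 28.9 and 17.1 in Mock, 36.4, 34.6 and 39.3 in d0, 40.4, 37.3 and 54.7 in d3, and 27.2, 38.3 and 37.5 in d28. All d0 and all d3 samples were above all Mock samples, and d28 overlapped with Mock. The log2 fold change of SSBP1 was 0.73 for d3 against Mock (SE 0.23, edgeR adjusted p = 0.0748), 0.46 for d0 against Mock (SE 0.26, edgeR adjusted p = 0.580) and -0.42 for d28 against d3 (SE 0.19, edgeR adjusted p = 0.484). Neither TWNK nor SSBP1 passed the threshold in any comparison.

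POLG, the catalytic subunit of polymerase gamma, had the smallest difference between d3 and Mock of the 10 genes. It lies on chromosome 15 at 89316320 to 89334824 and overlaps FANCI, MIR6766, POLGARF and POLG-DT. Normalized counts of POLG were 54.6, 38.9 and 49.6 in Mock, 43.7, 44.3 and 40.6 in d0, 50.0, 52.0 and 49.1 in d3, and 51.8, 45.5 and 41.8 in d28. The range of the Mock samples covered all other samples. The log2 fold change of POLG for d3 against Mock was 0.092, and its 95% interval of -0.29 to 0.47 held both lower and higher levels. POLG2, the accessory subunit that keeps the polymerase on its template, lies on chromosome 17 at 64477785 to 64497054 and overlaps MILR1 and ATP5MFP4. Normalized counts of POLG2 were 22.1, 16.3 and 13.7 in Mock, 21.9, 8.30 and 19.0 in d0, 26.2, 19.1 and 32.2 in d3, and 21.4, 26.7 and 14.4 in d28. The groups overlapped, and the low d0 replicate 2 rested on 6 raw counts. Its log2 fold change was 0.57 for d3 against Mock (SE 0.29, edgeR adjusted p = 0.412) and 0.63 for d3 against d0 (SE 0.28, edgeR adjusted p = 0.308).

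MGME1 is an exonuclease that trims the ends of replicating mitochondrial DNA. It lies on chromosome 20 at 17968590 to 17991122 and overlaps SNX5. Normalized counts of MGME1 were 44.3, 35.2 and 39.3 in Mock, 37.7, 55.3 and 40.6 in d0, 46.0, 40.7 and 46.7 in d3, and 39.0, 46.2 and 24.5 in d28. The lowest value was d28 replicate 3, with 17 raw counts. TOP1MT, the topoisomerase that relaxes mitochondrial DNA, lies on chromosome 8 at 143309324 to 143359977. Normalized counts of TOP1MT were 19.2, 28.9 and 20.5 in Mock, 25.5, 16.6 and 26.7 in d0, 31.7, 27.7 and 25.8 in d3, and 25.6, 29.6 and 20.2 in d28. All groups of MGME1 and of TOP1MT overlapped with Mock. The log2 fold changes at d3 against Mock were 0.18 for MGME1 (95% interval -0.23 to 0.59) and 0.29 for TOP1MT (95% interval -0.23 to 0.80).

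For the 10 genes together, the median difference from Mock was larger at d3 than at d0 or d28 when MT- genes were left out of the scaling. The same order was found with TMM factors that include MT- genes (0.24 at d0, 0.45 at d3 and 0.32 at d28). With plain library sizes that include MT- genes the median difference was larger at d28 (-1.10) than at d3 (0.013). In d3 against Mock 10 of 10 log2 fold changes were positive, beside 58.2% of all tested genes. The number was 9 with RLE factors or with library sizes without MT- genes, and 5 with library sizes that include MT- genes. With the sizes that include MT- genes the median over all tested genes was -0.37. With TMM factors without MT- genes the median of the 10 was 0.45, beside a median of 0.11 over all tested genes. With RLE factors these medians were 0.32 and -0.030, so that the distance between the 10 genes and all genes was similar while the level of both shifted by more than 0.1. The adjusted p was under 0.05 for 1 of the 10 (TFB1M), beside 1.59% of all tested genes. An unadjusted p under 0.05 was found for 5 of the 10 (POLG2, TWNK, TFAM, TFB1M and SSBP1), beside 12.1% of all genes. In 4 of the 10 (TWNK, TFAM, TFB1M and SSBP1) every d3 sample was above every Mock sample, beside 12.5% of all genes.

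In d0 against Mock 6 of 10 log2 fold changes were positive, beside 51.3% of all tested genes. The number was 3 with library sizes that include MT- genes, where the median over all tested genes was -0.48. With TMM factors without MT- genes the median of the 10 was 0.24, beside 0.015 over all tested genes. No gene of the 10 passed the edgeR adjusted p, beside 0.428% of all genes, and with DESeq2, which gave no adjusted p for 3 of the 10, none passed either. TFAM and TFB1M had an unadjusted p under 0.05, which makes 2 of 10 beside 9.54% of all genes. Every d0 sample was above every Mock sample in 3 of 10 (TFAM, TFB1M and SSBP1), beside 7.72% of all genes.

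In d28 against Mock 8 of 10 log2 fold changes were positive, beside 58.7% of all tested genes. The number was 7 with RLE factors, 3 with library sizes without MT- genes and 0 with library sizes that include MT- genes. The median over all tested genes was then 0.0061, -0.25 and -1.34 in the same order. With TMM factors without MT- genes the median of the 10 was 0.32, beside 0.10 over all tested genes. Neither an adjusted p under 0.05 (1.39% of all genes, edgeR) nor an unadjusted p under 0.05 (12.9% of all genes) was found among the 10. DESeq2 called none and gave no adjusted p for 6 of them. Every d28 sample was above every Mock sample for TFAM and POLRMT, 2 of 10 beside 11.6% of all genes. The counts for an unadjusted p under 0.05 and for d28 samples all above Mock were close to what the background would give for 10 genes.

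**Figure D2:**
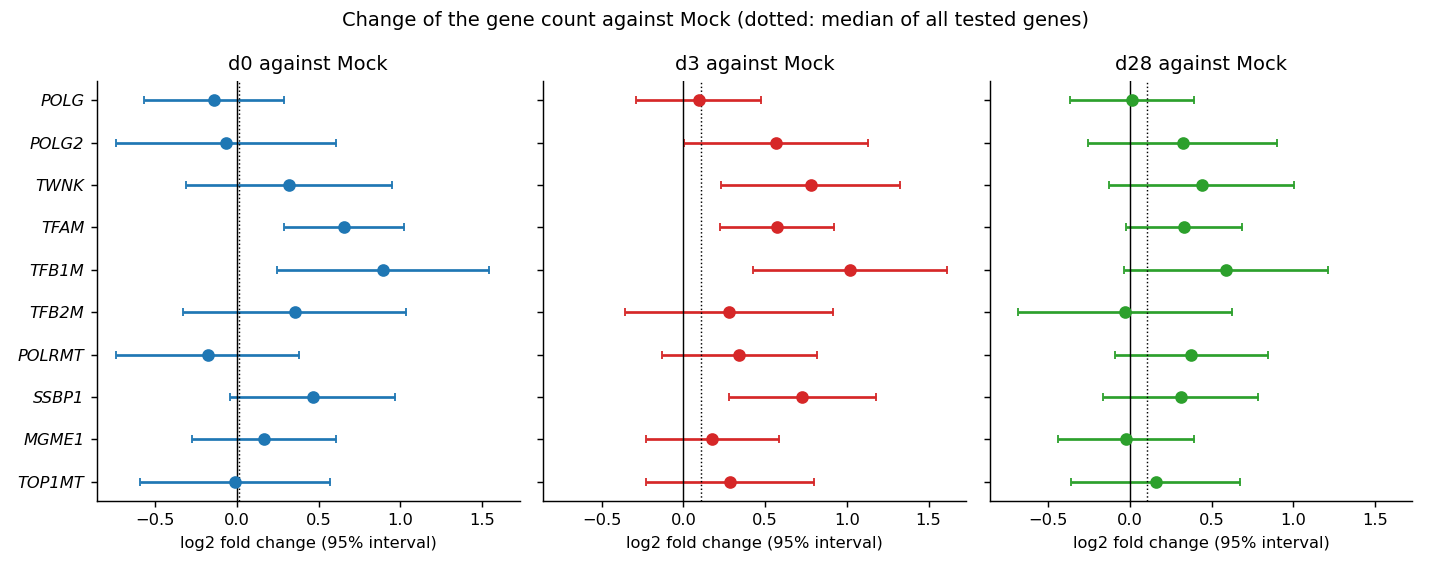
Log2 fold change against Mock (x axis, scaled without MT- genes) of the 10 genes (rows) in d0, d3 and d28 (panels). Points are edgeR estimates from 3 samples against 3, horizontal lines are 95% intervals, and the dotted line is the median of all tested genes. At d3 all 10 points lie right of 0, from 0.092 for POLG to 1.02 for TFB1M. Of all tested genes 58.2% had a positive value at d3.

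The comparison of d3 with d0 covers the induction of AF4-MLL together with its transfection, doxycycline and blasticidin. The comparison of d28 with d3 covers the time after the shutdown of AF4-MLL. That of d28 with d0 covers the transfection, doxycycline, blasticidin and induction together with the time after the shutdown. In both, the groups also differ in days of culture, which cannot be told apart from these steps. In d3 against d0 8 of 10 log2 fold changes were positive (56.7% of all genes), 7 with RLE factors or with library sizes without MT- genes. The median was 0.25 beside 0.082 over all genes. The 2 genes with an unadjusted p under 0.05 were POLG2 and POLRMT (12.1% of all genes), and 0 passed the edgeR adjusted p (1.23% of all genes) or that of DESeq2, which was not given for 1 gene. In d28 against d3 9 of 10 were negative, and over all genes 49.7% were positive. With TMM factors without MT- genes the median of the 10 genes was -0.24 beside -0.0028 over all genes. With library sizes without or with MT- genes 10 were negative, and the median over all genes was then -0.17 or -0.97. Only SSBP1 had an unadjusted p under 0.05 (8.75% of all genes), and 0 passed the edgeR adjusted p (0.218% of all genes) or that of DESeq2. In d28 against d0 the 10 genes were split, with 5 positive, beside 56.8% of all genes. With TMM factors without MT- genes the median of the 10 was -0.017 beside 0.087 over all genes. With library sizes without MT- genes 2 were positive, and with those that include MT- genes 0. The median over all genes was then -0.16 and -0.87. POLRMT and TFAM had an unadjusted p under 0.05 in opposite directions (12.8% of all genes), and 0 passed the edgeR adjusted p (1.18% of all genes) or that of DESeq2, which was not given for 6 genes. These comparisons share groups with those against Mock and are not separate evidence.

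The 10 genes were then set beside the mitochondrial DNA that their products serve. Their summed normalized count was 304, 279 and 245 in Mock, 351, 319.5 and 327 in d0, 389, 352 and 393 in d3, and 325, 337 and 301 in d28. On this TMM scale the lowest d28 sample was the only one of the other groups below the highest Mock sample. The ratio of the means to Mock was 1.21 in d0, 1.37 in d3 and 1.16 in d28. As a plain share of the counts without MT- genes it was 1.14, 1.22 and 0.934, and all d28 samples then lay below the highest Mock sample. Over the same groups the counts on MT- genes per 100 other counts were 36.6 in Mock, 78.6 in d0, 66.1 in d3 and 191 in d28, or 2.15-, 1.80- and 5.21-fold Mock. The group with the highest sum of the 10 genes (d3) was thus not the group with the highest mitochondrial signal (d28). Within d3 the MT- share was 44.1%, 41.4% and 32.8%, beside sums of the 10 genes of 389, 352 and 393. The replicate with the lowest share had the highest sum in d3 and d28, and not in Mock or d0. No correlation was computed, since the samples fell into clusters by group.

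The choice of scale decided the direction at d28. As a share of all counts, the 10 genes took 0.0441% ± 0.00351 in Mock, 0.0385% ± 0.00251 in d0, 0.0447% ± 0.00675 in d3 and 0.0194% ± 0.00209 in d28 (mean ± SD, n = 3). The ratio of d28 to Mock was 0.441 on this scale, against 1.16 with TMM factors without MT- genes and 0.934 as a plain share of the counts without MT- genes. The direction at d28 therefore turned also where MT- genes were left out. When library sizes with MT- genes were used, all 10 genes were called lower in d28 than in Mock (median log2 fold change -1.10). So were 17793 of the 30983 genes tested with these sizes, and the median of all tested genes was -1.34. The median of the 10 genes lay above that of all tested genes with these sizes and with TMM factors.

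**Figure D3:**
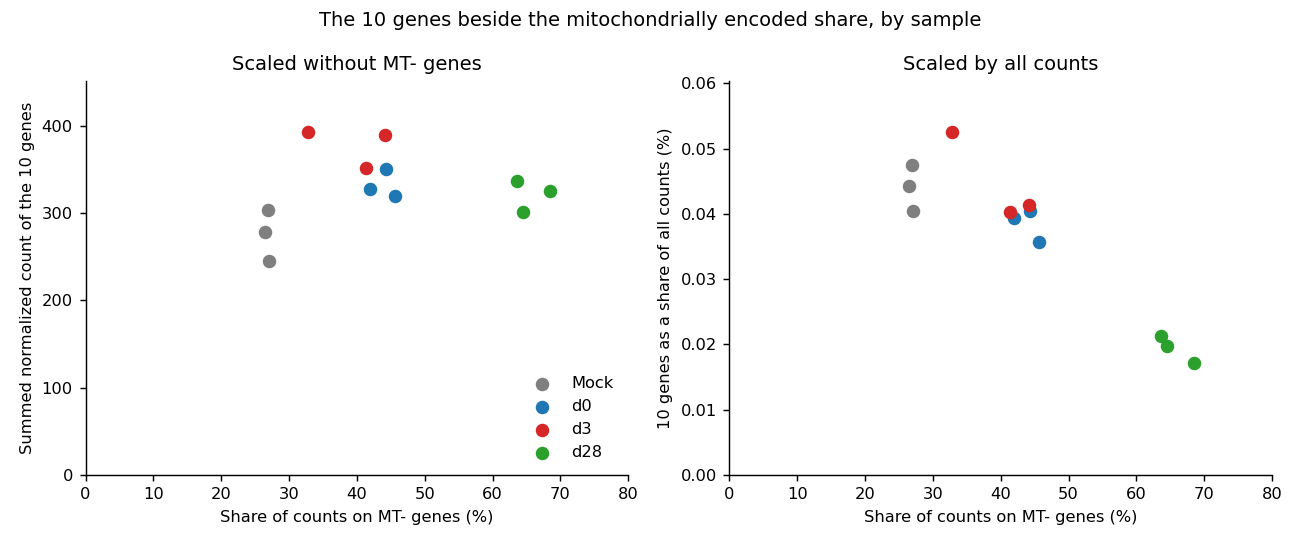
Each point is a sample, coloured by group, with the share of counts on MT- genes (x axis, %). Left, the summed normalized count of the 10 genes scaled without MT- genes (y axis), between 245 and 393. Right, the 10 genes as a share of all counts (y axis, %), with the d28 samples lowest at a mean of 0.0194%.

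Each gene was compared with its surroundings, the 10 tested genes on each side along the chromosome. For TFB1M the median log2 fold change of the 20 neighbours at d3 against Mock was 0.088, beside 1.02 for the gene, and 0 of the 20 were higher. For SSBP1 it was -0.0045 beside 0.73, with 4 neighbours higher. For TWNK it was 0.37 beside 0.78, with 1 neighbour higher, and for TFAM it was 0.24 beside 0.57, with 4 higher. The neighbours of TWNK and TFAM therefore lay above the median of all genes as well. TFB2M, on the long arm of chromosome 1, lay in surroundings with lower values, where the neighbours had a median of -0.26 at d3 and -0.30 at d28 against Mock. TFB2M itself was at 0.28 and -0.029, with 4 of its 20 neighbours higher in each comparison. Genes that overlap a member could share reads with it. The highest raw count in any sample was 52 for TIAM2, 86 for FANCI and 153 for SNX5, and their part in the counts of TFB1M, POLG and MGME1 was not tested.

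**Figure D4:**
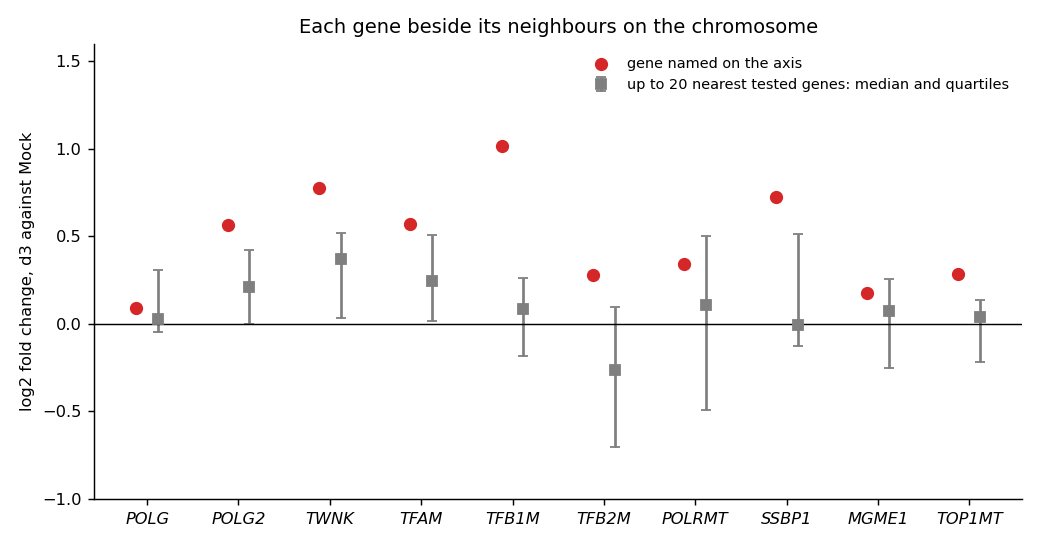
Log2 fold change of d3 against Mock (y axis) for each of the 10 genes (red points) and for the 20 nearest tested genes on its chromosome (grey, median and quartiles). TFB1M at 1.02 lies above all of its neighbours, whose median is 0.088.

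The machinery depends on wider groups of genes, which were read as lists. Of 10 genes that supply nucleotides to mitochondria, 5 had a positive log2 fold change at d3 against Mock (median -0.061) and 2 at d28 (median -0.24). Over all tested genes 58.2% were positive at d3 and 58.7% at d28. SLC25A4, the ADP/ATP carrier of heart and muscle, was called lower at d3 (log2 fold change -1.06, SE 0.29, edgeR adjusted p = 0.0234) and at d28 (-1.13, SE 0.29, edgeR adjusted p = 0.0124). Both calls for SLC25A4 rested on Mock replicate 1, and without it the log2 fold changes were 0.98 and 0.91 (edgeR adjusted p = 0.413 and 0.431). Without Mock replicate 2 they were -1.67 and -1.71. With DESeq2 the call at d3 was lost (log2 fold change -1.22, adjusted p = 0.776), as with the 2 groups only (edgeR adjusted p = 0.164), and at d28 no adjusted p was given for SLC25A4. The call at d3 was also lost without d3 replicate 2 or 3, and the call at d28 without d28 replicate 3 (edgeR adjusted p = 0.0866, 0.109 and 0.0804). TYMP, a thymidine phosphorylase that breaks down thymidine, was lower at d28 than in Mock (-0.87, SE 0.24, edgeR adjusted p = 0.0263), with mean normalized counts of 22.9 and 40.5. The call for TYMP was lost in 5 of 6 fits that left out a replicate, those without any single Mock replicate, without d28 replicate 1 and without d28 replicate 2, with edgeR adjusted p up to 0.180. DESeq2 gave no adjusted p for TYMP at d28. No other gene of this list passed in any comparison.

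None of the 11 accessory genes of mitochondrial DNA maintenance passed the edgeR adjusted p in any of the 6 comparisons. Per comparison 0 to 3 of the 11 had an unadjusted p under 0.05 (8.75% to 12.9% of all genes), and 0 passed with DESeq2, which gave no adjusted p for up to 8 of them. The smallest unadjusted p was that of LONP1, the protease that degrades TFAM, at d3 against Mock (log2 fold change 0.42, SE 0.15, edgeR adjusted p = 0.140). The median of this list at d3 was 0.21, with 7 of 11 positive, beside 58.2% of all genes. Of 20 genes for mitochondrial RNA synthesis and processing, 13 were positive at d3 (median 0.19), beside 58.2% of all genes. From this list FASTK was called once, in d28 against d3. FASTK, a founding member of a family of mitochondrial RNA-binding proteins, had a mean of 59.4 normalized counts in d28 and 91.4 in d3 (log2 fold change -0.64, SE 0.14, edgeR adjusted p = 0.00669). All d28 samples of FASTK were below all d3 samples, as for 2196 of the 27543 tested genes. The call for FASTK was lost without d28 replicate 2 (-0.49, edgeR adjusted p = 0.352), without d3 replicate 3 (-0.60, edgeR adjusted p = 0.0871) and with DESeq2 (adjusted p = 0.512). Of 8 nuclear regulators, 8 were positive at d3, beside 58.2% of all genes (median 0.23, beside 0.11 over all genes). None passed the edgeR or the DESeq2 adjusted p in any comparison (the latter was not given for up to 5 of them), and 1 to 4 per comparison had an unadjusted p under 0.05 (8.75% to 12.9% of all genes). Among them ESRRA, a nuclear receptor of mitochondrial genes, had the smallest unadjusted p, in d28 against d3 (log2 fold change -0.97, SE 0.27, edgeR adjusted p = 0.0886).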

How the data were processed

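The 12 ATAC-Seq samples (4 groups of 3) were mapped to groups by their labels. The authors prepared libraries with transposase from isolated nuclei and deposited raw read counts per gene without normalization. Per the labels, whose extract protocol also mentions an RNA kit, the samples were taken as ATAC-Seq. The submitters' processing notes name bcl2fastq, Bowtie2, HTSeq and GRCh38. Read shift, duplicate removal and the counted interval are not given in the sources used here. No columns of per-sample values were left unmapped.

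Counts were analysed with edgeR 4.0.16 in R 4.3.3. TMM factors and library sizes were computed without the 37 MT- genes. A quasi-likelihood model with the group as its only term was fitted to all 12 samples, and 27543 of 52889 entries were tested, those whose mean exceeded 2 normalized counts in any group. A Benjamini-Hochberg adjusted p under 0.05 was called. The study used DESeq2 with its geometric-mean factors. DESeq2 1.42.0, other scalings, filters, a replicate block and each replicate left out were alternatives. Depth was 353430 to 3539937 counts per sample. Poisson intervals at 95% cover only the error of counting. No 2 replicates agreed within sampling noise (chi-square over genes divided by its degrees of freedom, 1.05 to 1.28).

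The 10 genes and the lists were chosen with earlier results of these data known. All 10 were named, and of the 4 wider lists the genes past the threshold and the gene with the smallest unadjusted p. Of the lists, all 49 genes were tested. Locations and windows are from RefSeq GRCh38.p14, and chromosomal neighbours were ordered from 20753 tested symbols matched to it.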

Additional observations from a re-analysis of the deposited data

Results flagged for a closer look

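FASTK was singled out by the comparison of d28 with d3, which is also the difference between its changes against Mock at these days, so the p-value is that of the selection and not separate evidence. The log2 fold change of d28 against d3 was -0.64 (SE 0.14, edgeR adjusted p = 0.00669), with mean normalized counts of 59.4 in d28 and 91.4 in d3. Against Mock the log2 fold change of FASTK was 0.35 at d3 (edgeR adjusted p = 0.331) and -0.29 at d28 (edgeR adjusted p = 0.474). The call was lost with DESeq2 (adjusted p = 0.512), without d28 replicate 2 (edgeR adjusted p = 0.352) and without d3 replicate 3 (edgeR adjusted p = 0.0871). None of the 10 genes passed the same threshold in this comparison.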

How the results depend on the processing

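Counts of 4 to 120 per gene and sample limit every value. Of 60 log2 fold changes of the 10 genes, the sign changed in 22 with library sizes that include MT- genes, 11 with library sizes without them, 3 each with RLE factors and DESeq2, 1 each with 2 groups only and the replicate block, and 0 with TMM including MT- genes, TMM without nuclear copies of mitochondrial genes, filterByExpr or no filter on low counts. With each replicate left out it changed in 27 of 360. The causes were not tested.

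The call for TFB1M at d3 against Mock, and with it the count of the 10 genes called, fell to 0 with library sizes without MT- genes (log2 fold change 0.86, edgeR adjusted p = 0.185), library sizes with MT- genes (0.59, 0.358), RLE factors (0.89, 0.155), TMM without nuclear copies (1.03, 0.0507), DESeq2 (0.91, 0.397), no filter (1.02, 0.0955), 2 groups only (1.01, 0.0758) and the replicate block (1.02, 0.0519). With filterByExpr 3 were called (TFB1M, TFAM and SSBP1). Beside them, 462 genes were called higher and 89 lower of all 14325 tested in that fit. With library sizes without MT- genes 1 was called in d28 against d0 (TFAM, lower), beside 930 of all 27877 tested genes. Leaving out a replicate gave 0 to 1 calls at d0 and at d3 against Mock, beside 66 to 87 and 161 to 310 calls over all tested genes. The log2 fold change of TFB1M at d3 was then 0.76 to 1.65, with edgeR adjusted p of 0.0172 to 0.336.

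With library sizes that include MT- genes, the number called was 10 in d28 against Mock, 8 in d28 against d0 and 10 in d28 against d3, all lower. Of all 30983 genes tested with these sizes, 17855, 12262 and 16061 were called in the same order, of which 17793, 12198 and 15994 were lower. In d28 against Mock the log2 fold change was -1.43 for POLG, -1.11 for POLG2, -0.999 for TWNK, -1.09 for TFAM, -0.84 for TFB1M, -1.05 for POLRMT, -1.09 for SSBP1 and -1.27 for TOP1MT. In d28 against d0 it was -0.83 for POLG, -0.85 for TWNK and -0.80 for TOP1MT, and in d28 against d3 -0.94 for POLRMT. The median of the 10 genes was then -0.22 for d0, 0.013 for d3 and -1.10 for d28 against Mock, -0.97 for d28 against d0 and -1.23 for d28 against d3. With library sizes without MT- genes it was -0.27 for d28 against d0.

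The number of all genes called also moved. For d0 against Mock 118 became 1411 with library sizes including MT- genes, 76 without nuclear copies, 60 with DESeq2 and 66 to 87 with a replicate left out. For d3 against Mock 439 became 261 (library sizes without MT- genes), 709 (with them), 270 (RLE), 85 (DESeq2), 288 (no filter) and 161 to 310 (a replicate left out). For d28 against Mock 383 became 1305, 17855, 102 (DESeq2) and 171 to 330. For d3 against d0 339 became 218, 145, 46 (DESeq2) and 129 to 228. For d28 against d0 325 became 930, 12262, 90 (DESeq2), 184 (no filter) and 118 to 245. For d28 against d3 60 became 103 (TMM with MT- genes), 522, 16061, 34 (without nuclear copies), 27 (DESeq2) and 33 to 49. In the last 4 comparisons the unlabelled pair of values is for library sizes without and with MT- genes.

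Scaling also moved the split of calls into higher and lower. For d0 against Mock it was 77 and 41, but 51 and 60 with library sizes without MT- genes and 57 and 1354 with them. For d3 against Mock it was 353 and 86, but 111 and 150, 61 and 648, 133 and 137 with RLE factors and 46 and 39 with DESeq2. For d28 against Mock it was 275 and 108, but 90 and 1215, 62 and 17793, 162 and 173, and 45 and 57 in the same order. For d3 against d0 it was 277 and 62, but 129 and 89 with library sizes without MT- genes, 122 and 111 with RLE factors and 22 and 24 with DESeq2. For d28 against d0 it was 200 and 125, but 71 and 859, 64 and 12198, 132 and 185, and 39 and 51. For d28 against d3 it was 31 and 29, but 70 and 33 with TMM with MT- genes, 35 and 487, 67 and 15994, 31 and 18, 13 and 21 without nuclear copies, and 22 and 5 with DESeq2.

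Of the wider lists, SLC25A4 reversed without Mock replicate 1, to 0.98 at d3 and 0.91 at d28 (lowest values with a replicate left out -1.67 and -1.71), and the call for TYMP was lost with no filter (-0.87, edgeR adjusted p = 0.0516). Replicates of the same number did not deviate together over 8232 genes (mean correlations -0.0724 to 0.0341 per comparison), so the numbers were not taken as pairs. Apart from TFB1M at d3, the replicate block changed no call of the 10 genes.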
